A study of Mus musculus with 20 samples.

Results

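Sorted microglia of 4 mice labelled hC4B/- were compared with those of 5 mice labelled C4-/-, 9 of the 20 libraries in the series, chosen by their titles. The other libraries, labelled WT, hC4A/- and hC4A/A, entered the same statistical model and its estimate of the spread, and some WT and hC4A/- values are given. In the genotype names, C4-/- stands for loss of the mouse complement gene C4 and hC4B for the human gene C4B, carried in hC4B/- on a single allele as the notation is usually read. The names of the mice with human C4 say nothing of mouse C4, and neither the promoter or insertion site of the human gene nor the sex, litter and strain of the mice is given. For every library, 1000 cells with high CD11b and low CD45 were sorted from the frontal cortex of 1 mouse at postnatal day 40, and their RNA was copied by template switching, amplified and sequenced. The values are reads per mouse gene, given here as CPM, a gene's counts relative to the total of its library after scaling by the trimmed mean of M values (TMM).

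C4 sits in the classical complement pathway, where C1q binds a target, its proteases cleave C4 and C2, and the resulting enzyme cleaves C3. Microglia, the resident macrophages of the brain, make much of the C1q in the brain and take up synaptic material that complement fragments mark. Human C4A and C4B encode isotypes of the protein that differ in the chemical groups to which the activated protein prefers to bind.

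The 9 libraries held between 1143140 and 2155808 counts over genes, and the median detected gene had 3 to 10 counts in a library. In 3 of them, hC4B/- 2, hC4B/- 3 and C4-/- 3, over 27000 genes were detected (30041, 30176 and 27178), against 11471 to 23912 in the other 6. Olfactory and vomeronasal receptor genes, which microglia are not known to use, were detected in 55.1% to 66.9% of 1430 cases in these 3 broad libraries and in 6.15% to 39.2% in the others. Expression ranks followed this division: the median Spearman correlation was 0.709 over the 15 pairs of other libraries, 0.717 over the 3 pairs of broad ones and 0.517 over the 18 mixed pairs. Predicted genes over satellite-like sequence took 28.3%, 81.0%, 58.5% and 58.8% of the counts in hC4B/- 1 to 4, and 17.6%, 28.1%, 49.9%, 32.9% and 28.6% in C4-/- 1 to 5, a difference of 25.2 percentage points (two-sided exact permutation p = 0.0635). With the broad libraries left out, the difference was 16.7 points and the exact permutation p 0.4. Too few libraries then remained for that test to reach a p under 0.05. By the sample numbers of the deposited files, 4 of the 5 C4-/- libraries belong to an earlier run of numbers than C4-/- 5 and all 4 hC4B/- libraries. What those numbers stand for is not given, and with 1 control in the later run the numbering and the genotype cannot be told apart.

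The gene named in the genotypes did not follow the labels. Mouse C4b (ENSMUSG00000073418, GRCm38 chromosome 17, 34728380 to 34743882), the mouse gene for C4, was at 3.84, 277, 291 and 2.92 CPM in hC4B/- 1 to 4, and at 59.8, 6.53, 103, 3.76 and 30.6 CPM in the libraries labelled C4-/- 1 to 5. All 5 libraries labelled C4-/- therefore held C4b reads, more than the 0.383 ± 0.767 CPM of wild type (SD, n = 4), and the groups overlapped. The 3 highest values of the 9 were those of the 3 broad libraries. The log2 fold change was 1.81 ± 1.08 (SE), with an adjusted p of 0.990 in edgeR's quasi-likelihood test, and it turned to -2.40 ± 1.45 without the broad libraries. Neither which part of the gene these reads covered nor what the null allele removes is given in the sources used here, and the gene list holds no human gene, so C4B transcripts were not measured. C4a (chromosome 17, 34809092 to 34823464), a close copy of C4b with which reads may be shared, had 17 counts over the 4 hC4B/- libraries and 5 over the 5 labelled C4-/-, so its values are uncertain. Because of C4b, every direction given here is between libraries as labelled.

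C1q, the recognition molecule that starts the classical pathway, is built of the products of C1qa, C1qb and C1qc, and all 3 genes were among the strongest signals of the microglia. C1qa was at 1116, 138, 1235 and 425 CPM in hC4B/- and at 1067, 350, 309, 789 and 1449 CPM in C4-/-. C1qb was at 1519, 385, 1361 and 471 CPM in hC4B/- and at 1542, 509, 576, 1159 and 1832 CPM in C4-/-. C1qc was at 1217, 311, 2372 and 597 CPM in hC4B/- and at 668, 504, 653, 413 and 1300 CPM in C4-/-. The groups overlapped for each subunit, and hC4B/- 2 had the lowest value of all 9 libraries for each of them. Log2 fold changes were -0.12 ± 0.77 for C1qa and -0.27 ± 0.72 for C1qb, both of which changed sign under RLE scaling (0.22 and 0.049), and 0.67 ± 0.70 for C1qc, which stayed above 0 in every alternative fitted. With a 95% interval of -0.75 to 2.09, the C1qc value leaves the direction undecided. C3, the protein cleaved after C4, had 10 and 8 counts over the groups and could not be tested.

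**Figure D1:**
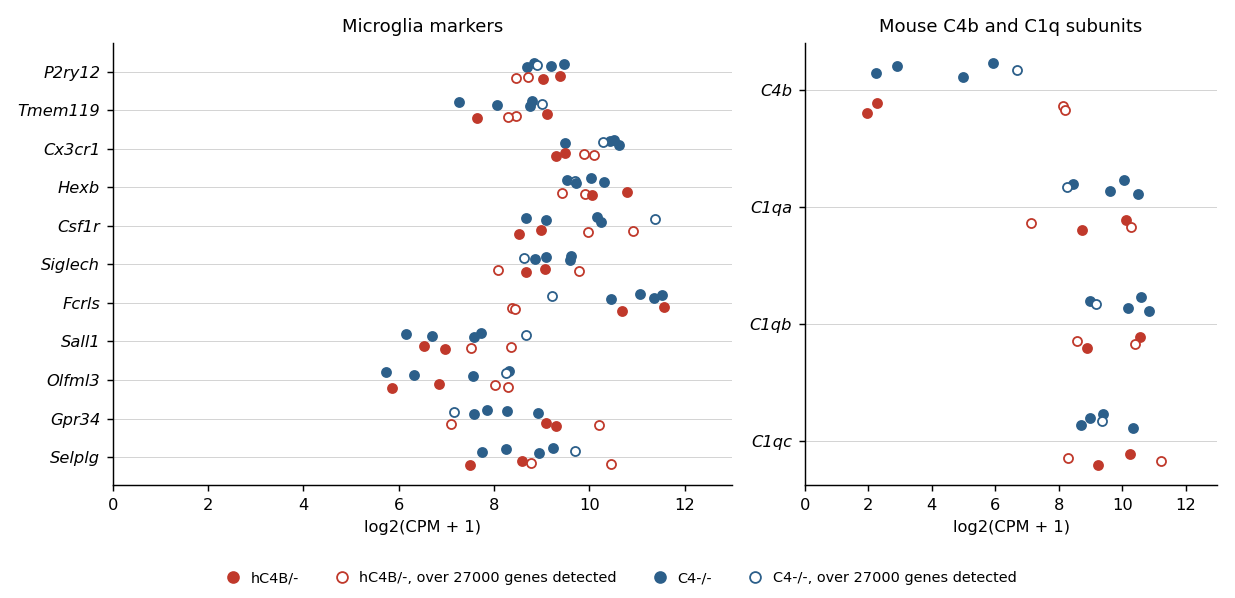
Levels of 11 microglia markers (left) and of mouse C4b with the 3 C1q subunits (right) in each library, as log2(CPM + 1). Each point is 1 library, red for hC4B/- and blue for C4-/-, open where over 27000 genes were detected; for C4b the 3 open points are the highest of the 9, while the groups overlap for every gene shown.

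No gene of 12680 tested passed an adjusted p of 0.05 between hC4B/- and C4-/- in edgeR (0%), where the smallest adjusted p was 0.443. At an unadjusted p under 0.05 there were 573 genes (4.52%), 236 of them higher (1.86%) and 337 lower (2.66%) in hC4B/-, and without hC4B/- 3 the number was 358. Limma voom called 0 genes, DESeq2 called 3, and edgeR without the filter on low counts called 16. The 3 were Rnf181, Trim5 and Ddx3y. Rnf181, a ubiquitin ligase gene, was at 301, 14.5, 3271 and 55.5 CPM in hC4B/- and at 90.9, 65.3, 7.21, 48.3 and 20.6 CPM in C4-/-. Trim5, a gene of the TRIM family of restriction factors, was at 27.8, 8.44, 542 and 113 CPM in hC4B/- and at 10.4, 21.4, 6.55, 10.2 and 20.6 CPM in C4-/-. For both genes the groups overlapped and hC4B/- 3 was far above the rest. Over all genes tested the median standard error was 1.11 on the log2 scale, larger than the median absolute difference of 0.732.

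Direction over all genes depended on the scaling and on the genes kept. The median log2 fold change was -0.03 with TMM, and 51.2% of genes were below 0, but RLE scaling moved the median to 0.23 and removal of the satellite-like genes to 0.34. The split of genes at an unadjusted p under 0.05 moved with it, from 236 higher and 337 lower to 310 and 191 under RLE scaling and, among the 15911 genes tested in that fit, to 480 and 246 without the satellite-like genes. Leaving out the 3 broad libraries, and with them hC4A/A 2, the 1 such library of another genotype in the model, left 2 hC4B/- against 4 C4-/- libraries. This gave 0 genes at an adjusted p under 0.05 of 12397 (0%). At an unadjusted p under 0.05 there were 847 (6.83%), 457 higher (3.69%) and 390 lower (3.15%). Of the 573 genes, 253 were again under 0.05 with the same sign in that fit and 30 had the opposite sign.

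The levels of 45 genes were lower in each of the 4 hC4B/- libraries than in any of the 5 labelled C4-/- (0.355% of genes tested), and those of 49 were higher (0.386%). Among the 6211 genes with a mean of 10 CPM or more, these numbers were 31 (0.499%) and 17 (0.274%). Such separation is given as a description of the 9 libraries. The 12 lower and 12 higher genes of smallest p among them, all of the same sign without the broad libraries, are described next.

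Ccl3, which encodes the chemokine MIP-1alpha that attracts leukocytes through chemokine receptors, showed the clearest gap among the lower genes. It (chromosome 11, 83647844 to 83649355) was at 1.71, 0, 0.681 and 8.77 CPM in hC4B/- 1 to 4 and at 28.8, 25.2, 16.4, 25.8 and 31.3 CPM in C4-/- 1 to 5. Together the 4 hC4B/- libraries held 17 counts of Ccl3 and the 5 C4-/- libraries 197. The C4-/- values were close to each other, broad library included, and even the highest hC4B/- value was well under the lowest of them. The log2 fold change was -3.13 ± 1.13 with a 95% interval of -5.44 to -0.82 and an adjusted p of 0.990 (0.634 to 1 over the alternatives), and it ranged from -4.56 to -2.01 over those alternatives. Without the broad libraries it was -2.01 ± 1.42.

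Ppp1r3b, a subunit that directs protein phosphatase 1 to glycogen, had the smallest p of the lower group. Its levels (chromosome 8, 35375739 to 35388139) were 9.40, 10.9, 10.2 and 5.85 CPM in hC4B/- and 75.9, 110, 19, 69.3 and 48.6 CPM in C4-/-. The hC4B/- libraries were alike, whether broad or not, and the lowest C4-/- value was that of the broad C4-/- 3. The log2 fold change was -2.82 ± 0.85 (adjusted p = 0.888, with 0.585 to 1 over the alternatives), and -3.07 ± 1.16 without the broad libraries. Dnajc5, the co-chaperone of secretory vesicles known as cysteine string protein (chromosome 2, 181520485 to 181555133), was at 41.0, 43.4, 66.0 and 67.2 CPM in hC4B/- and at 178, 315, 72.8, 357 and 253 CPM in C4-/-. Here, too, the broad C4-/- 3 lay nearest to the hC4B/- values. Its log2 fold change was -2.11 ± 0.65 with an adjusted p of 0.990, and -2.07 ± 0.66 without the broad libraries.

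Tns1, the focal adhesion protein tensin 1 (chromosome 1, 73910231 to 74124449), was at 14.1, 68.7, 46.3 and 11.7 CPM in hC4B/- and at 188, 175, 116, 82.2 and 126 CPM in C4-/-. Cass4, an adhesion scaffold of the Cas family (chromosome 2, 172393794 to 172433757), was at 8.12, 9.65, 7.49 and 2.19 CPM in hC4B/- and at 20.1, 49.4, 17.7, 12.4 and 81.2 CPM in C4-/-. Cdh23, a long cadherin best known from the tip links of hair cells (chromosome 10, 60302748 to 60696490), was at 44.8, 63.9, 62.6 and 51.2 CPM in hC4B/- and at 208, 372, 67.5, 136 and 126 CPM in C4-/-. For Tns1 the gap between the groups was 68.7 to 82.2 CPM, and for Cdh23 only 63.9 to 67.5 CPM. The log2 fold changes of Tns1, Cass4 and Cdh23 were -1.97 ± 0.79, -2.39 ± 0.92 and -1.71 ± 0.74 (adjusted p of 0.990 for all 3). Afap1l1, of a family that binds actin filaments, and the phosphatase-domain gene Pald1 differed by -1.69 ± 0.76 and -1.45 ± 0.60. The Pald1 groups all but met, at 83.2 against 83.9 CPM.

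Rnf135 encodes the ubiquitin ligase Riplet, which activates the viral RNA sensor RIG-I. Its levels (chromosome 11, 80183851 to 80199757) were 4.27, 3.62, 5.44 and 2.19 CPM in hC4B/- and 10.9, 75.5, 8.52, 6.45 and 75.2 CPM in C4-/-. The C4-/- group was itself divided, with C4-/- 2 and C4-/- 5 about an order of magnitude above the remaining 3, whose values lay close to hC4B/-. The log2 fold change was -3.15 ± 1.09. Eid1, an inhibitor of the acetyltransferases CBP and p300, was at 2.14, 1.21, 3.40 and 4.38 CPM in hC4B/- and at 16.1, 37.3, 5.90, 10.2 and 18 CPM in C4-/-, a log2 fold change of -2.60 ± 0.96. Zc3h14, a protein that binds poly(A) tails, and Alkbh3, a demethylase that repairs alkylated nucleic acids, differed by -1.66 ± 0.71 and -2.31 ± 1.03. The groups all but met for Zc3h14, at 30.7 against 30.8 CPM, and lay close for Alkbh3, at 9.65 against 10.6 CPM. All 12 lower genes kept their sign in every alternative fitted. They were chosen for separate groups and the same sign without the broad libraries, so this was largely fixed in advance.

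**Figure D2:**
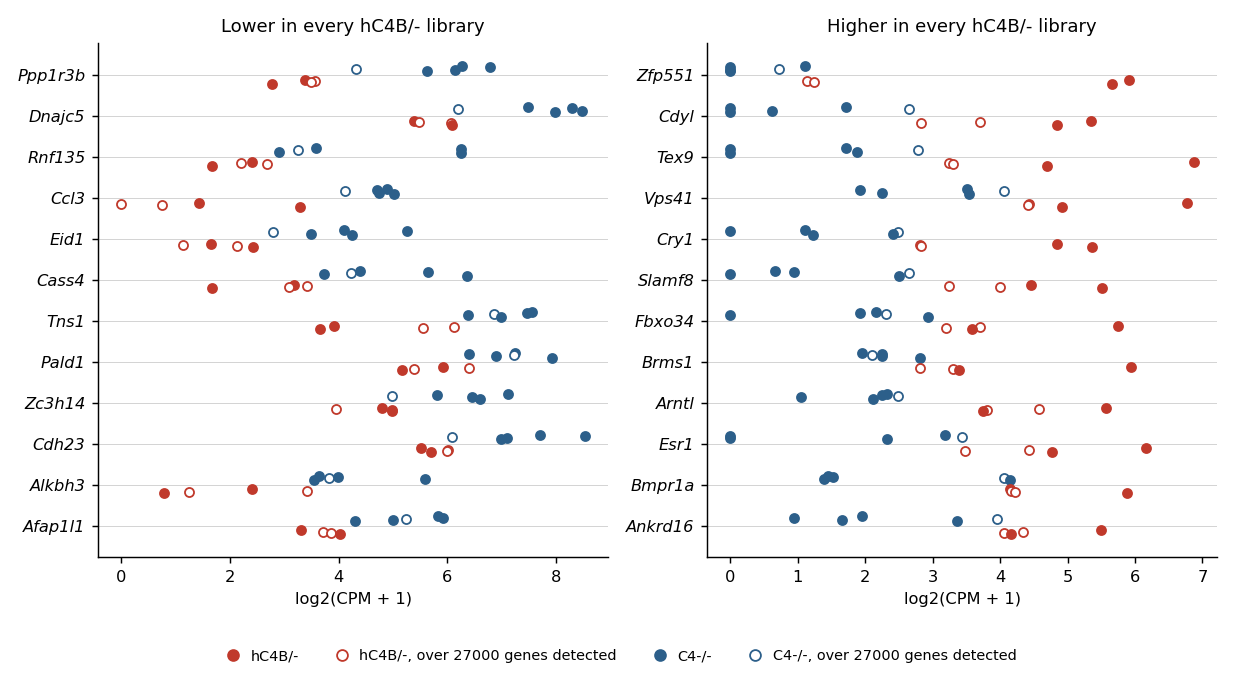
The 12 genes of smallest p whose 4 hC4B/- libraries were all below the 5 C4-/- libraries (left) and the 12 whose libraries were all above (right), at a mean of 10 CPM or more. Each point is 1 library at its log2(CPM + 1), red for hC4B/- and blue for C4-/-, open where over 27000 genes were detected; on the right the open red points lie mostly at the lower end of their group, next to the blue ones.

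Cry1 and Arntl, 2 genes of the circadian clock, were both among the 12 higher genes. Cry1, the clock repressor cryptochrome 1 (chromosome 10, 85131700 to 85185064), was at 27.8, 6.03, 6.13 and 40.2 CPM in hC4B/- and at 1.15, 0, 4.59, 4.30 and 1.33 CPM in C4-/-. Arntl, the clock activator BMAL1 (chromosome 7, 113207465 to 113314126), was at 46.6, 22.9, 12.9 and 12.4 CPM in hC4B/- and at 4.03, 3.73, 4.59, 1.07 and 3.33 CPM in C4-/-. For Arntl the groups were well apart, whereas for Cry1 the broad hC4B/- libraries lay just above the highest C4-/- value. The differences were 3.08 ± 1.10 and 2.81 ± 1.23 on the log2 scale (both at an adjusted p of 0.990), from 134 against 19 counts of Cry1 and 164 against 25 of Arntl.

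Slamf8, a SLAM family receptor of myeloid cells (chromosome 1, 172581758 to 172590568), was at 20.9, 8.44, 15 and 44.6 CPM in hC4B/- and at 0.575, 0.932, 5.24, 0 and 4.66 CPM in C4-/-. Vps41, a subunit of the HOPS complex that tethers vesicles to lysosomes (chromosome 13, 18717286 to 18866811), was at 108, 20.5, 20.4 and 29.2 CPM in hC4B/- and at 10.4, 2.80, 15.7, 3.76 and 10.6 CPM in C4-/-. Esr1, the estrogen receptor alpha (chromosome 10, 4611593 to 5005614), was at 70.9, 20.5, 10.2 and 26.3 CPM in hC4B/- and at 8.05, 0, 9.83, 0 and 3.99 CPM in C4-/-. The Slamf8 values were spread over the hC4B/- group, the Vps41 mean was carried largely by hC4B/- 1, and the Esr1 groups all but met, at 10.2 against 9.83 CPM in a pair of broad libraries. The 3 genes differed by 3.25 ± 1.30, 2.36 ± 0.82 and 2.84 ± 1.25 on the log2 scale (adjusted p of 0.990 for all 3).

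Among the remaining higher genes, Cdyl, a chromatin co-repressor that reads histone methylation, was at 39.7, 12.1, 6.13 and 27.8 CPM in hC4B/- and at 2.30, 0, 5.24, 0.537 and 0 CPM in C4-/-. Its log2 fold change was 3.65 ± 1.18. Bmpr1a, a type I receptor for bone morphogenetic proteins, was at 16.7, 16.9, 17.7 and 57.7 CPM in hC4B/- and at 1.73, 1.86, 15.7, 1.61 and 16.6 CPM in C4-/-. The Bmpr1a groups were thus barely separated, at 16.7 against 16.6 CPM, with 3 of the C4-/- libraries near 0, and the log2 fold change was 1.85 ± 0.90. Tex9, Fbxo34, Brms1 and Ankrd16 differed by 4.12 ± 1.41, 2.62 ± 1.05, 2.43 ± 1.03 and 2.00 ± 0.98, and hC4B/- 1 had the highest value of each. The Brms1 groups all but met, at 6.03 against 5.99 CPM. The zinc finger gene Zfp551 was at 59.4 and 49.7 CPM in hC4B/- 1 and 4 but at 1.21 and 1.36 CPM in the broad hC4B/- 2 and 3, where C4-/- reached 1.15 CPM. With 3 counts over all C4-/- libraries, no fold is given for Zfp551, whose adjusted p was 0.850 in edgeR and ran from 0.00827, with no filter on low counts, to 1 over the alternatives. All 12 higher genes kept their sign in every alternative fitted, which the same way of choosing them largely fixed in advance. Without the broad libraries the log2 fold changes of those other than Zfp551 ran from 3.25 for Bmpr1a to 5.83 for Tex9.

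The smallest p-values of the comparison belonged to other genes, in which a single library stood out. Rbm27, an RNA-binding protein gene, was at 41.9, 8.44, 4744 and 31.4 CPM in hC4B/- and at 18.4, 22.4, 19, 41.9 and 31.3 CPM in C4-/-. Bag6, a chaperone of membrane proteins awaiting insertion, was at 18.4, 42.2, 2443 and 2.19 CPM in hC4B/- and at 15.5, 0.932, 45.9, 1.07 and 9.32 CPM in C4-/-. In each of the 8 genes of smallest p (Rbm27, Shisa5, Cep83, Mocs2, Fam117a, Snu13, Aloxe3 and Bag6) the library hC4B/- 3 held between 89.8% and 99.1% of the CPM summed over the 9 libraries, and the groups overlapped. Their fitted log2 fold changes ran from 4.80 ± 1.13 (Shisa5) to 8.14 ± 1.95 (Fam117a) with an adjusted p of 0.443 each. Over the alternatives the lowest adjusted p was 0.00767 (Aloxe3 and Bag6) and the highest 1, and with no filter on low counts all but Fam117a passed the threshold. Without hC4B/- 3, Rbm27 was at 0.23, Cep83 at 0.20, Snu13 at 0.39, Bag6 at 0.60, Fam117a at 0.74 and Shisa5 at 1.33, while Mocs2 turned to -0.24, and Aloxe3 no longer passed the filter on counts.

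This was a wider feature of the comparison. In 312 of the 573 genes at an unadjusted p under 0.05 (54.5%), 1 library held over 50% of the summed CPM, against 14.6% of all genes tested. The share was 79.7% among the higher genes and 36.8% among the lower ones. Over all genes, hC4B/- 3 was that library 423 times, more often than any other of the 9, and the broad C4-/- 3 was it 27 times, the fewest.

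**Figure D3:**
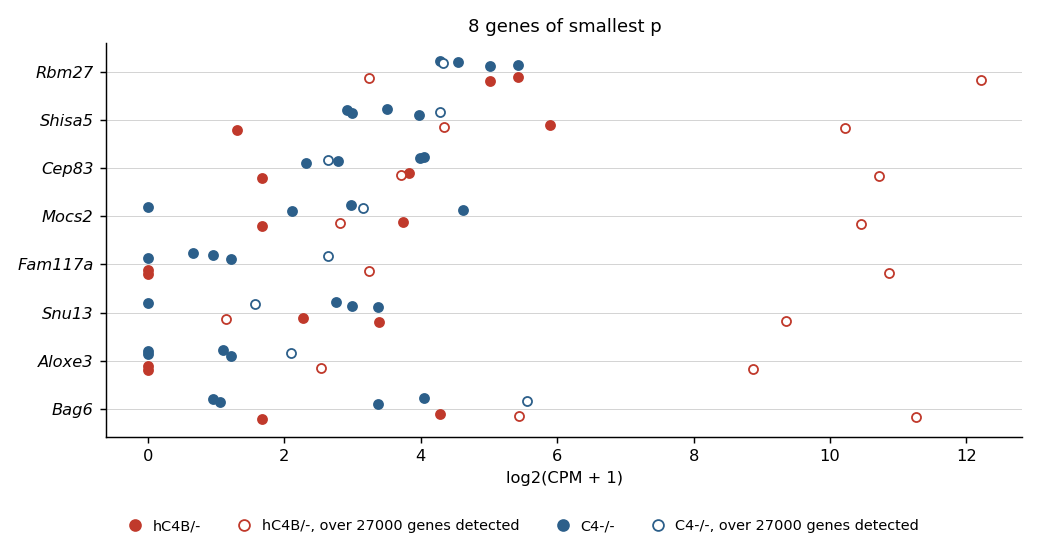
The 8 genes of smallest p in each library, as log2(CPM + 1), with 1 point per library, red for hC4B/- and blue for C4-/-, open where over 27000 genes were detected. A single open red point, hC4B/- 3, lies between 470 (Aloxe3) and 4744 CPM (Rbm27), and the other 8 libraries overlap.

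**Figure D4:**
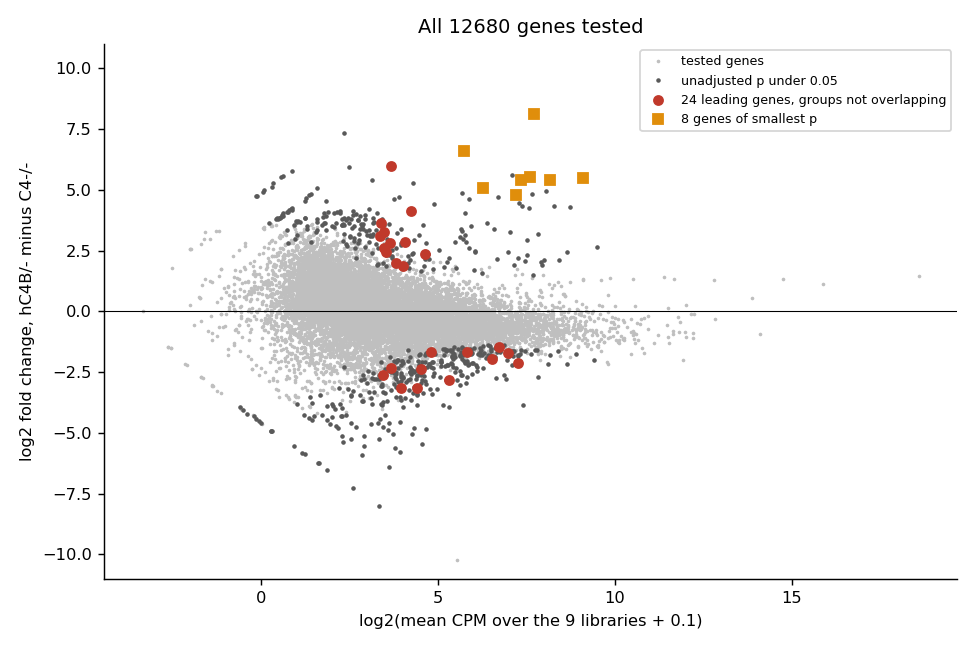
Log2 fold change of hC4B/- minus C4-/- against mean level for the 12680 genes tested, with genes at an unadjusted p under 0.05 in dark grey, the 24 leading genes with separate groups in red and the 8 genes of smallest p as orange squares. The squares lie at 4.80 or higher, and none of the points passed the adjusted threshold.

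Chemokine genes as a group were on the lower side. Of 18 chemokine and chemokine receptor genes listed, 10 could be tested, and all 10 had a log2 fold change below 0, with a median of -0.71 against -0.03 over all genes. The same 10 of 10 were below 0 under RLE scaling (median -0.41 against 0.23), whereas 8 of 10 were without the broad libraries (median -0.29 against -0.20) and 7 of 10 without C4-/- 5. Ccl3 and Ccl2 were at an unadjusted p under 0.05, 2 of 10 against the 2.66% of all genes that were lower at that threshold, and none passed after adjustment. Leaving out the broad libraries, hC4B/- 2 or hC4B/- 3 left 0 of the 10 at that threshold. Ccl2, the ligand that draws Ccr2-bearing monocytes, was at 7.69, 2.41, 3.40 and 0.731 CPM in hC4B/- and at 25.3, 14, 4.59, 31.7 and 3.99 CPM in C4-/-, a log2 fold change of -2.09 ± 0.93. The Ccl2 groups overlapped, C4-/- 3 and C4-/- 5 lying within the range of hC4B/-. Cx3cr1, the fractalkine receptor through which neurons signal to microglia, was at 723, 952, 1090 and 627 CPM in hC4B/- and at 1461, 1393, 1243, 718 and 1574 CPM in C4-/-. All but 1 of the C4-/- libraries were above every hC4B/- library, and the log2 fold change was -0.59 ± 0.66. Ccl4, the chemokine MIP-1beta, was at -1.29 ± 1.03 with overlapping groups.

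Cytokine and NF-kB genes were mixed. Of 20 tested, 7 were higher and 13 lower (median -0.35), and 2 were at an unadjusted p under 0.05, both lower, where 2.66% of all genes were. Il18, a cytokine released by inflammasomes, was at 8.54, 6.03, 6.13 and 17.5 CPM in hC4B/- and at 33.9, 58.7, 13.1, 22.6 and 36.6 CPM in C4-/-. Nfkbiz, an inducible co-regulator of NF-kB targets, was at 0.427, 8.44, 6.13 and 0.731 CPM in hC4B/- and at 24.7, 42.9, 22.9, 2.15 and 6.65 CPM in C4-/-. Il18 overlapped only through hC4B/- 4 and C4-/- 3, Nfkbiz through both of the lower C4-/- libraries, and their log2 fold changes were -1.77 ± 0.86 and -2.37 ± 1.15. The cytokines Tnf and Il1b had 1 and 9 counts over the 9 libraries and were not tested. Toll-like receptors and their adaptors, the sensors upstream of NF-kB, were higher in 5 and lower in 16 of 21 (median -0.58). The kinase gene Irak4, which carries their signal from Myd88, was at 84.1, 12.1, 10.2 and 44.6 CPM in hC4B/- and at 326, 53.1, 12.5, 106 and 159 CPM in C4-/-, a log2 fold change of -1.79 ± 0.80 with overlapping groups. Without C4-/- 3 the Toll-like list had 10 higher and 11 lower, with a median of -0.02 against 0.28 over all genes. With all the broad libraries left out, it had 7 higher and 14 lower, with a median of -0.49 against -0.20.

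Of the receptors for complement fragments, 7 of 9 tested were below 0 (median -0.35) and none at an unadjusted p under 0.05. C5ar1, the receptor for the anaphylatoxin C5a, was at 114, 9.65, 23.1 and 114 CPM in hC4B/- and at 230, 206, 37.4, 261 and 183 CPM in C4-/-. C3ar1, the receptor for C3a, was at 462, 30.2, 34.7 and 371 CPM in hC4B/- and at 683, 820, 74.1, 495 and 459 CPM in C4-/-. In both genes the 3 broad libraries had the 3 lowest values. The log2 fold change of C5ar1 moved from -1.48 ± 0.79 to -0.67 ± 0.51 without the broad libraries and that of C3ar1 from -1.17 ± 0.82 to -0.29 ± 0.41. C5ar2, the alternative C5a receptor, moved from -1.51 ± 0.85 to -0.70 ± 0.47. Itgam, the CD11b chain of complement receptor 3 on which the cells were sorted, was at -0.35 ± 0.69, and at 0.47 without the broad libraries.

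Among complement components and regulators, 11 of 27 listed genes were tested, 7 higher and 4 lower (median 0.67), and 1 was at an unadjusted p under 0.05, where 4.52% of all genes were. That gene was Cd46, a membrane cofactor that inactivates C3b and C4b, at 0.427, 3.62, 1.36 and 2.19 CPM in hC4B/- and at 1.15, 5.59, 5.24, 81.6 and 0 CPM in C4-/-. Its log2 fold change of -3.34 ± 1.43 rested on C4-/- 4, without which it was -0.68. The median of the complement list went to -0.04 without the broad libraries, in 10 genes.

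The markers of microglia were abundant in all 9 libraries. P2ry12, the purinergic receptor that guides their processes, was at 664, 419, 350 and 524 CPM in hC4B/- and at 460, 707, 477, 587 and 415 CPM in C4-/-. Tmem119, a marker that sets microglia apart from other macrophages, was at 553, 350, 314 and 200 CPM in hC4B/- and at 442, 152, 511, 265 and 431 CPM in C4-/-. The groups overlapped throughout, and the log2 fold changes were -0.11 ± 0.62 and -0.02 ± 0.63, both above 0 without the broad libraries (0.37 and 0.51). The 95% intervals were -1.39 to 1.16 for P2ry12 and -1.30 to 1.26 for Tmem119. Of 30 genes of the homeostatic state, 9 were higher and 21 lower (median -0.16), and none was at an unadjusted p under 0.05. Under RLE scaling, where the median of all genes was 0.23, 18 were higher and 12 lower. Gpr34, a lysophosphatidylserine receptor and the homeostatic gene of smallest p, was at 546, 135, 1177 and 629 CPM in hC4B/- and at 229, 309, 142, 486 and 190 CPM in C4-/-. For Gpr34 3 of 4 hC4B/- libraries were above all of C4-/-, hC4B/- 2 below them, and the log2 fold change was 1.20 ± 0.69 with an adjusted p of 0.990.

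Transcription factors that set microglial identity were lower in 11 of 15 (median -0.67), again with no gene at an unadjusted p under 0.05. Under RLE scaling 8 of 15 were lower (median -0.37 against 0.23 over all genes). Without the broad libraries 12 of 14 were lower (median -0.17 against -0.20). Mef2c, which restrains inflammatory gene expression in microglia, was at 543, 158, 174 and 358 CPM in hC4B/- and at 882, 836, 168, 510 and 659 CPM in C4-/-. For Mef2c 2 C4-/- libraries, the broad C4-/- 3 and C4-/- 4, fell among the hC4B/- values. Its log2 fold change was -0.99 ± 0.70, and -0.39 without the broad libraries. Smad3, which relays TGF-beta signals needed for microglial identity, was at -1.07 ± 0.68 and at -0.45 ± 0.57 without them. Bulk counts of sorted cells cannot tell fewer cells of a type from less of a transcript per cell.

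**Figure D5:**
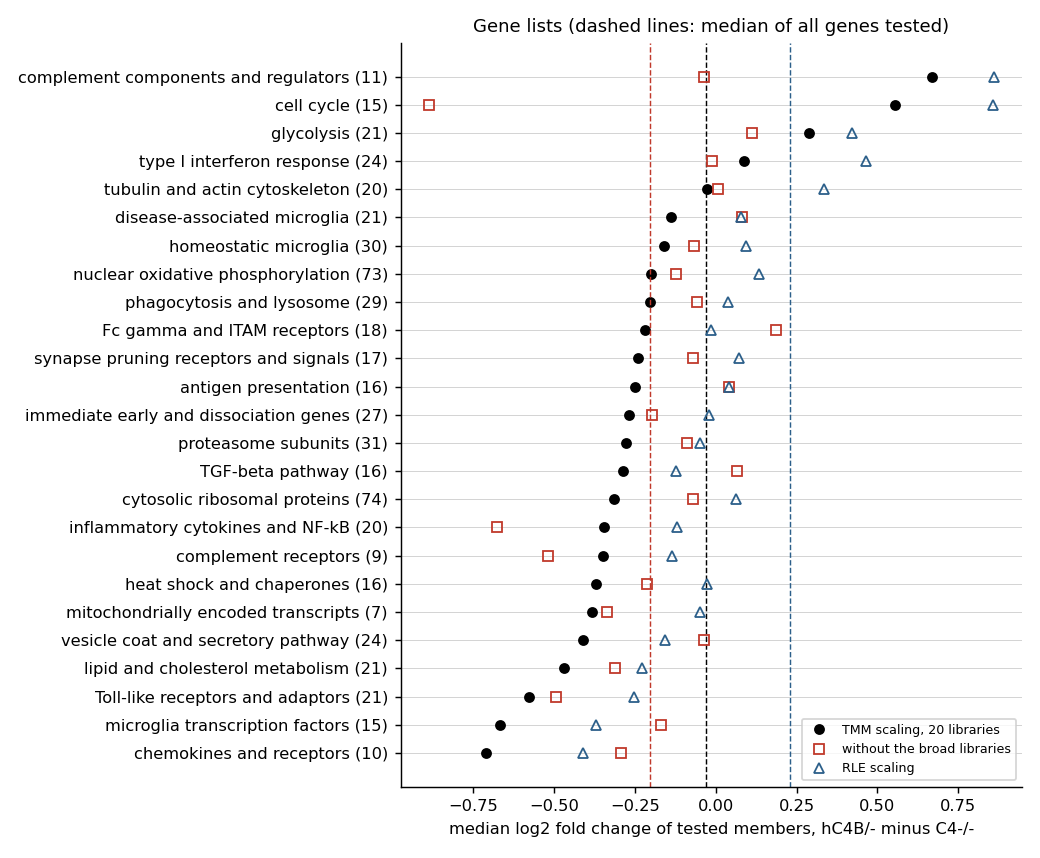
Median log2 fold change, hC4B/- minus C4-/-, of the tested members of 25 gene lists (number tested in brackets), with TMM scaling of all libraries (black), without the libraries in which over 27000 genes were detected (red, for genes tested both ways) and with RLE scaling (blue). Dashed lines give the median of all genes tested in the same colours; the chemokine list lies lowest in black at -0.71, and 8 of the 25 medians change sign without the broad libraries, the complement and cell cycle lists among them.

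Lists of activated and phagocytic microglia stayed close to the median of all genes. Genes of disease-associated microglia were higher in 8 and lower in 13 of 21 (median -0.14), and phagocytosis and lysosome genes higher in 9 and lower in 20 of 29 (median -0.20). Rab7, the small GTPase of late endosomes, was the 1 gene of these 29 at an unadjusted p under 0.05, near the 2.66% of all genes that were lower. It was at 32.5, 21.7, 19.7 and 30.0 CPM in hC4B/- and at 152, 50.4, 23.6, 117 and 40.6 CPM in C4-/-. Only the broad C4-/- 3 fell within the hC4B/- range of Rab7, and the log2 fold change was -1.56 ± 0.70. Synapse pruning receptors and signals were higher in 6 and lower in 11 of 17 (median -0.24). Cd47, the signal that protects a cell or synapse from uptake, was at 239, 65.1, 1227 and 129 CPM in hC4B/- and at 101, 104, 59.6, 164 and 120 CPM in C4-/-. The Cd47 difference of 1.92 ± 0.73 became 0.80 ± 0.47 without the broad libraries, of which hC4B/- 3 was the high one. Type I interferon response genes were higher in 13 and lower in 11 of 24 (median 0.09).

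The direction of housekeeping groups depended on the scaling, and RLE scaling also moved the median of all genes, from -0.03 to 0.23. Cytosolic ribosomal protein genes were higher in 16 and lower in 58 of 74 (median -0.32), but higher in 42 and lower in 32 under RLE scaling. Proteasome subunits were higher in 7 and lower in 24 of 31 (median -0.28), with 15 higher and 16 lower under RLE scaling. Psmd2, a subunit of the regulatory particle, was the 1 gene of these 31 at an unadjusted p under 0.05, near the 2.66% of all genes that were lower. It was at 5.13, 16.9, 17.7 and 48.2 CPM in hC4B/- and at 79.4, 152, 15.1, 146 and 88.5 CPM in C4-/-. Apart from the broad C4-/- 3, every C4-/- library was above all of hC4B/-, and the log2 fold change of Psmd2 was -2.13 ± 0.80. Glycolysis genes were higher in 12 and lower in 9 of 21 (median 0.29). Tpi1 and Gpi1, 2 of the 21, were higher at an unadjusted p under 0.05, against 1.86% of all genes. Tpi1 was at 402 CPM in hC4B/- 3 and at 35.9 CPM or less in every other library. Gpi1, which interconverts hexose phosphates, was at 53.8, 30.2, 91.9 and 16.8 CPM in hC4B/- and at 12.1, 9.32, 30.1, 5.91 and 14 CPM in C4-/-, a log2 fold change of 1.75 ± 0.72. Lipid and cholesterol genes were higher in 8 and lower in 13 of 21 (median -0.47), yet the 2 at an unadjusted p under 0.05 were higher, against 1.86% of all genes. Among these was Scd2, a fatty acid desaturase, at 3.32 ± 1.11. For Scd2 hC4B/- 1 stood at 329 CPM, and without it the other 3 hC4B/- libraries ran from 21.7 to 42.4 against 2.80 to 24.2 CPM in C4-/-.

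In the cell cycle list, 9 genes were higher and 6 lower of 15 (median 0.55), turning to 4 higher and 9 lower of 13 without the broad libraries (median -0.89). At an unadjusted p under 0.05 there were 2 of the 15, both lower, against 2.66% of all genes. Both encode subunits of the MCM helicase that opens DNA for replication. Mcm7 was at 0.854, 4.82, 4.76 and 0 CPM in hC4B/- and at 43.7, 95.1, 7.21, 13.4 and 1.33 CPM in C4-/-. Mcm3 was at 0.427, 16.9, 1.36 and 2.92 CPM in hC4B/- and at 5.75, 75.5, 9.18, 32.8 and 83.8 CPM in C4-/-. Each overlapped through 1 or 2 libraries, with log2 fold changes of -3.64 ± 1.25 and -3.00 ± 1.12, and each was lower in every alternative fitted. Mki67, a marker of dividing cells, was at 10.9 CPM or less in each of the 9 libraries.

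Immediate early genes, which respond to dissociation of tissue, were higher in 10 and lower in 17 of 27 (median -0.27), and 3 of them were lower at an unadjusted p under 0.05, against 2.66% of all genes. Trib1, a pseudokinase that directs degradation of C/EBP factors, was at 69.6, 19.3, 3.40 and 44.6 CPM in hC4B/- and at 98.9, 206, 43.9, 90.2 and 247 CPM in C4-/-. For Trib1 only C4-/- 3 lay below the highest hC4B/- value, and its log2 fold change was -1.99 ± 0.78. Atf3, a stress-induced factor, was at 98.8 CPM in C4-/- 4 and at 3.93 CPM or less in the other 8 libraries. Ier3 had 0 counts in hC4B/- and 12 in C4-/-, at least 3.12-fold lower when hC4B/- is set to 3 counts in all.

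Markers of other cells that the sort could admit were low. Neutrophil granule genes were higher in 8 of 8 tested (median 1.08), but in 3 of 8 without the broad libraries, and their summed level ran from 0.854 to 182 CPM in hC4B/- and from 0 to 150 CPM in C4-/-. S100a9, the most abundant of them, was at 0, 4.82, 86.4 and 11 CPM in hC4B/- and at 67.9, 0, 0.655, 0 and 0 CPM in C4-/-. Its log2 fold change of 0.89 ± 1.41 turned to -1.0 without the broad libraries, and the part of such cells in other results was not tested. The border macrophage marker Mrc1 was at 43.1, 13.3, 12.2 and 45.3 CPM in hC4B/- and at 9.20, 65.3, 14.4, 4.30 and 16.6 CPM in C4-/-. Lyve1 and Pf4 had 4 and 3 counts in hC4B/-, all in the broad hC4B/- 2 and 3, and 0 in C4-/-. Of the same list, Cd163 and F13a1 had 6 and 12 counts in hC4B/- and 1 and 3 in C4-/-. Cbr2 had 4 counts in each group, and Ms4a7 had 3 in hC4B/- and 5 in C4-/-. Haemoglobin Hba-a1 had 10 counts in hC4B/-, all in hC4B/- 4, and 0 in C4-/-, at least 4.27-fold higher with C4-/- set to 3 counts in all. Neuronal Elavl3 was at 159 CPM in hC4B/- 1 and at 5.44 CPM or less in the other 8 libraries. The neuron list had 4 higher and 1 lower gene (median 1.81), but 1 higher and 2 lower of 3 without the broad libraries (median -0.08). From the endothelial list, Cldn5 had 1 count in each group.

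A few genes of these lists are also used by microglia or lymphoid cells. Il7r, the receptor for interleukin 7, was at 82.4, 20.5, 29.3 and 49.0 CPM in hC4B/- and at 169, 389, 23.6, 215 and 260 CPM in C4-/-, while Cd3e, a defining T cell gene, had 2 and 5 counts. Slc1a3, a glutamate transporter of astrocytes, was at 155, 48.2, 30.6 and 253 CPM in hC4B/- and at 693, 618, 84.5, 309 and 425 CPM in C4-/-, while the astrocyte gene Gfap had 5 and 4 counts. In both cases the groups overlapped only through the broad C4-/- 3, with log2 fold changes of -2.21 ± 0.82 and -1.80 ± 0.77, and -1.75 ± 0.59 and -0.95 ± 0.45 without the broad libraries. Cnp, an enzyme of myelinating cells, was at -1.67 ± 0.76 in the same pattern, with Mog, a defining myelin gene, at 1 and 2 counts. The astrocyte and oligodendrocyte lists as a whole were even, each with 3 genes higher and 3 lower. Slc4a4 of the astrocyte list was at 3.06 ± 1.71, but its counts in hC4B/- were 0, 11, 21 and 0. All of these lay in the broad hC4B/- 2 and 3, and the gene was not tested without the broad libraries. Cspg4 of the oligodendrocyte list was at 2.62 ± 1.28, and at 3.44 ± 1.44 without the broad libraries.

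Transcripts of the Y chromosome were highest in 2 of the 9 libraries, C4-/- 3 and C4-/- 4, and hC4B/- 2 held 1 count of Eif2s3y and 2 of Uty. Ddx3y was at 21.0 and 400 CPM there and at 0 in the other 7, so hC4B/- was at least 202-fold lower with the same floor. Kdm5d, another Y-linked gene, was likewise at 0 in hC4B/- and at least 14.6-fold lower. X-linked Xist was at 67.1, 800, 276 and 126 CPM in hC4B/-, and at 299, 175 and 373 CPM in C4-/- 1, 2 and 5, but at 1.97 and 0 CPM in C4-/- 3 and 4. Sex is not in the labels, and its part in the other results was not tested. In a fit added after seeing the data, without C4-/- 3 and 4, again 0 genes passed the adjusted threshold.

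The chromosome around C4b was looked at by itself. Within 10 Mb of C4b, 261 genes were tested and 10 were at an unadjusted p under 0.05 (3.83%), against 563 of 12417 elsewhere (4.53%). None of the 261 separated the groups, and elsewhere 94 of 12417 did, a share so small that the absence among 261 says little. Besides Bag6 and Ier3 the 10 include H2-Ob, a modulator of class II antigen loading, at -2.29 ± 0.90 and at -1.46 without the broad libraries. Neu1, the lysosomal sialidase beside the complement genes and a member of the lysosome list, was at 1.41 ± 0.90.

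Directly against the 5 libraries of hC4A/-, which carry the other human isotype, hC4B/- again had 0 genes at an adjusted p under 0.05 in edgeR (0%), with 2122 at an unadjusted p under 0.05 (16.7%), falling to 773 (6.24%) without the broad libraries. DESeq2 called 93 genes in this contrast and edgeR without the filter called 36. Ccl3 was at 13.7 ± 12.8 CPM in hC4A/- (SD, n = 5), and the difference of hC4B/- minus hC4A/- was -2.24 ± 1.10 on the log2 scale (adjusted p = 0.30). Ppp1r3b was at 62.4 ± 65.2 CPM in hC4A/-, with a difference of -2.78 ± 0.85 (adjusted p = 0.24). Cry1 was at 1.20 ± 0.886 CPM in hC4A/- and differed by 3.97 ± 1.14, whereas Arntl was at 31.6 ± 41.2 CPM and differed by -0.41 ± 1.17. None of these 4 differences passed the threshold.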

How the data were processed

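Each library came with its own deposited table of read counts by gene, not normalized by the authors. The submitters' processing notes name STAR, edgeR and the build GRCm38, without versions or an annotation release. The column of counts that ignores strand was taken, so reads of a gene and of an antisense partner cannot be told apart, and the summary lines for unassigned reads were dropped (unmapped reads alone were 18.9% to 42.1% of each library). Of 54838 genes, 54809 matched a GENCODE annotation of GRCm38. No molecular identifiers were used, so bounds cover counting error only.

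Genes were filtered with filterByExpr and scaled by TMM, and a quasi-likelihood model with a term per genotype was fitted to the 20 libraries together (edgeR 4.0.16 in R 4.3.3, with limma 3.58.1 and DESeq2 1.42.0 for alternatives), 15 residual degrees of freedom and p-values adjusted by Benjamini-Hochberg over all 12680 genes. The common dispersion was 1.07, and standard errors are the absolute log2 fold change divided by the square root of F. The model was tested on simulated data. Single values per library were compared by two-sided exact permutation tests.

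Genes were named by a rule: C4b, C4a, C1q subunits and C3, the 12 lower and 12 higher genes of smallest p with separate groups, a mean of 10 CPM or more and the same sign without the broad libraries, passing over predicted genes, the 8 genes of smallest p, and up to 3 genes of smallest p in each of 36 lists. A few others, such as Rnf181, Trim5, Cx3cr1, P2ry12, Tmem119, Itgam and H2-Ob, were chosen after their values were seen. The comparison and the lists were chosen with earlier results of these data known. No pair of libraries within a group was a copy of another (chi-square of 29.7 to 140 per degree of freedom). Whether libraries are separate litters is not given, so p-values measure the spread between these samples. Alternatives were RLE scaling, DESeq2, voom, no filter, removal of 13 satellite-like genes, the 9 libraries alone, a replicate block, and leaving out each library, the broad libraries, or C4-/- 3 and 4. A few genes that the rule names are not reported here.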

Additional observations from a re-analysis of the deposited data

Results flagged for a closer look

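A group of values was flagged where 1 library lay far from the rest, which chance gives in about 1 in 20 for normally distributed values. Most named genes were chosen by smallest p, and many of their CPM values are skewed, so that rate cannot serve as a reference here. In 36 of 164 groups of values (22%) for the named genes, 1 library lay far from the rest of its group. Of these, 12 were values of hC4B/- 3: Rbm27 at 4744 CPM, Bag6 at 2443, Fam117a at 1872, Cep83 at 1678, Mocs2 at 1407, Cd47 at 1227, Shisa5 at 1197, Snu13 at 653, Aloxe3 at 470, Tpi1 at 402, S100a9 at 86.4 and S100a8 at 65.3 CPM. A further 7 were values of hC4B/- 1, with Scd2 at 329, Elavl3 at 159, Tex9 at 117, Vps41 at 108, Brms1 at 60.7, Fbxo34 at 52.5 and Ankrd16 at 44.0 CPM.

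In hC4B/- 4, Bmpr1a at 57.7 and Hba-a1 at 7.31 CPM were high, and Golm1 at 64.3 CPM was low. In hC4B/- 2, Mcm3 was at 16.9 and Eif2s3y at 1.21 CPM. Among the libraries labelled C4-/-, C4-/- 4 had Ddx3y at 399.6, Eif2s3y at 99.9, Atf3 at 98.8, Cd46 at 81.6 and Alkbh3 at 47.3 CPM. The library C4-/- 5 had C1qc at 1300, Tpi1 at 35.9 and Brms1 at 5.99 CPM, C4-/- 1 had S100a9 at 67.9 and S100a8 at 33.4 CPM, C4-/- 2 had Mrc1 at 65.3 CPM, and C4-/- 3 had Fam117a at 5.24 CPM.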

How the results depend on the processing

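Of 1415 alternative values for 80 named genes, 1380 kept their sign and side of the threshold, 10 passed it (Zfp551, Elavl3 and 7 of the 8 genes of smallest p with no filter, Ddx3y with DESeq2) and 25 in 9 genes changed sign. Leaving out the broad libraries put C4b at a log2 fold change of -2.40, C1qa at 0.047, Cep83 at -0.17, Mocs2 at -0.16, Fam117a at -3.35, S100a8 at -0.071 and S100a9 at -1.0. Without those libraries genes detected per library changed from 2476 more in hC4B/- to -4094 (exact permutation p = 0.533, with too few libraries left to reach 0.05). C1qa was at 0.23 with the 9 libraries alone, 0.22 with RLE scaling and with DESeq2, 0.085 without the satellite-like genes, 0.053 with the replicate block and 0.027 without C4-/- 3 and 4, an alternative chosen after seeing the data, and it ran from -0.38 to 0.49 with each library left out. C1qb was at 0.061 with the 9 libraries alone and 0.049 with RLE scaling and with DESeq2, and ran from -0.58 to 0.23 with each library left out. With each library left out Mocs2 ran from -0.24 to 6.26 and S100a9 from -0.76 to 6.77, both lowest without hC4B/- 3, and without C4-/- 3 and 4 Eif2s3y was at 1.97. Genes at an adjusted p under 0.05 numbered 3 with DESeq2 and 16 with no filter, and 93 and 36 against hC4A/-. Genes at an unadjusted p under 0.05 numbered 190 with the 9 libraries alone, 274 with voom, 2625 with no filter, and 358 (without hC4B/- 3) to 856 with each library left out. The median log2 fold change was -0.23 without the broad libraries, 0.23 with RLE scaling and with DESeq2, 0.34 with no filter and without the satellite-like genes, 0.40 without C4-/- 3 and 4, and -0.064 to 0.28 with each library left out, highest without C4-/- 3 and next (0.20) without hC4B/- 4. Without the broad libraries 1466 genes had separate groups, as 2 against 4 libraries separate more often. The satellite-like share differed by 20.8 points for Gm10800 alone (exact permutation p = 0.0476).

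Replicate numbers showed no steady pairing of the libraries: deviations of same-numbered libraries correlated at 0.03, -0.29, 0.51 and 0.28. The value of 0.51 was for hC4B/- 3 and C4-/- 3, which are both broad, and so few single pairs cannot exclude a pairing. A replicate block left 357 genes at an unadjusted p under 0.05 and 0 after adjustment. The cause of these shifts was not tested. The median detected gene had 3 to 10 counts in a library, and genes of 10 CPM or more still had a median standard error of 0.869, so small differences could not be seen in these libraries.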

Other observations

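Since Cry1 and Arntl were both higher in every hC4B/- library, 21 genes of the circadian clock were listed after those values were seen, and are described without a test. Of 16 that could be tested, 6 were higher and 10 lower (median log2 fold change -0.43), and 3 were at an unadjusted p under 0.05, where 4.52% of all genes were: Cry1 and Arntl, whose values prompted the list, and Clock, which was lower. Clock, the partner of BMAL1, was at 61.1, 16.9, 15.7 and 21.2 CPM in hC4B/- and at 125, 67.1, 33.4, 78.4 and 134 CPM in C4-/-, a log2 fold change of -1.60 ± 0.71, and the groups overlapped. Csnk1e, a kinase that acts on the clock repressors, was at 71.3, 83.2, 96.6 and 57.0 CPM in hC4B/- and at 171, 182, 136, 105 and 166 CPM in C4-/-, without overlap, at -0.98 ± 0.56. Genes that the clock drives went both ways. Per3 was at -0.75 ± 0.84, Dbp at -2.01 ± 1.40, Hlf at -0.59 ± 0.93, Nr1d1 at -0.29 ± 1.41 and Per1 at -0.04 ± 0.97. Per2 was at 1.34 ± 1.43, Cry2 at 0.63 ± 1.31, Tef at 0.52 ± 0.85 and Nr1d2 at 0.31 ± 0.98. The time of day of collection is not given in the sources used here.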
